A study of Mus musculus with 2 samples.

Results

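The genes described here are the cytosolic aminoacyl-tRNA synthetases together with the serine, one-carbon and amino acid enzymes, amino acid transporters and stress factors that belong to the amino acid response of the transcription factor Atf4. The 49 genes were chosen by their function, with their knockdown over control ratios on these arrays already known, and were then found by name. A probe belonged to a gene where its gene name in the scanner file equalled the gene's symbol, letter case aside. By this rule 46 of the 49 genes had a probe, 85 probes in all, among 27845 gene names on the array. Of the 46 genes, 44 were among the 18204 tested genes, which had a probe well above background in at least 1 colour on both arrays. Because the ratios were selected on in this way, the values of these genes are given as a description, with no test.

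Gene expression was measured in C2C12 cells, a line of mouse skeletal myoblasts from leg muscle of an adult C3H mouse per the labels, grown at low density in a growth medium with 20% serum. In the knockdown group the cells stably expressed a short hairpin RNA against Mybbp1a, which encodes a nucleolar protein that binds Myb and acts as a transcriptional corepressor, and in the control group they stably expressed a control hairpin. Both groups were mixed stable clones per the labels, so a stably expressed hairpin was common to them. The 2 arrays, which the labels call biological replicates, each compared Cy5-labelled knockdown RNA with Cy3-labelled control RNA.

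Aminoacyl-tRNA synthetases join each amino acid to its transfer RNA and so supply the ribosome. When amino acids run short or the endoplasmic reticulum is stressed, kinases phosphorylate the initiation factor eIF2, general translation slows and translation of Atf4 rises. Atf4 then binds composite C/EBP-ATF elements and activates synthetases, amino acid transporters, and enzymes of serine, asparagine and one-carbon metabolism, and with Ddit3 and Atf3 it also drives stress genes such as Trib3 and Chac1. Because Atf4 is controlled largely at translation, the level of its own messenger RNA is only a partial reading of its activity.

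Of these genes' promoters, 39 of the 49 were matched in the RefSeq promoter windows of mouse build GRCm38.p6, which run from 250 bases before the annotated transcription start to 50 after it. The windows were searched on both strands for TGATGNAA, the core letters of the C/EBP-ATF element. The element was in the window of 13 of the 39 genes, or 33.3%, against 1219 of all 27025 genes with a window, or 4.51%. Cars, Hars, Lars, Nars, Rars, Vars, Wars, Cth, Slc7a3 and Slc7a5 had no window there. Many of the genes were listed because they are known Atf4 targets, so their share is not independent of the choice of genes. A match to these letters is a description of the sequence and not a measured binding site. The following 60-base stretches, all upstream of the start and read 5′ to 3′ on the strand of the gene, are shown because they carry the element in genes of the synthetase, other enzyme, transporter and stress groups; capitals mark the element, in either orientation. Coordinates are 1-based on GRCm38.p6.
Aars, a synthetase, chr8:111033704-111033763, plus strand: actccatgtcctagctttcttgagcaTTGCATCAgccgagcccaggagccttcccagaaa
Gars, a synthetase, chr6:55037941-55038000, plus strand: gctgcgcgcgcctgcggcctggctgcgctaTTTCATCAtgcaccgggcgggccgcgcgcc
Tars, a synthetase, chr15:11399659-11399718, minus strand: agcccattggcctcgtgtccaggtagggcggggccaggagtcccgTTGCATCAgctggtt
Asns, an amino acid enzyme, chr6:7693210-7693269, minus strand: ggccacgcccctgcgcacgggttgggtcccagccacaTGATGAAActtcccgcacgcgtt
Pycr1, an amino acid enzyme, chr11:120643818-120643877, minus strand: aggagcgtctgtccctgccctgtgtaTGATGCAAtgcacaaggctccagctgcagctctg
Slc7a11, a transporter, chr3:50443646-50443705, minus strand: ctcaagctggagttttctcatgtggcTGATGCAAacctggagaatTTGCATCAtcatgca
Atf3, a stress factor, chr1:191183410-191183469, minus strand: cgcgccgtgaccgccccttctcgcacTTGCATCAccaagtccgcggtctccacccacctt
Chac1, a stress factor, chr2:119351023-119351082, plus strand: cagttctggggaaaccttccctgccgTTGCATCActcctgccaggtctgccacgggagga

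By group, the element was in the window of 5 of 13 synthetases (Aars, Gars, Iars, Tars and Yars), 2 of 4 other amino acid enzymes, 2 of 5 transporters (Slc7a11 and Slc1a4) and 3 of 6 stress factors (Atf3, Trib3 and Chac1). None of the 8 serine and one-carbon enzymes held it in this window, which says only that these letters are not there. Slc7a11 held the element in each orientation, at -66 and at -47 from the start, and Aars held it at -112 and at 10. The E-box CACGTG, the letters bound by Myc and related factors, was in 6 of the 39 windows, or 15.4%, against 8.09% of all genes; the 6 were Farsb, Aars, Iars, Tars, Cbs and Aldh18a1.

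**Figure D1:**
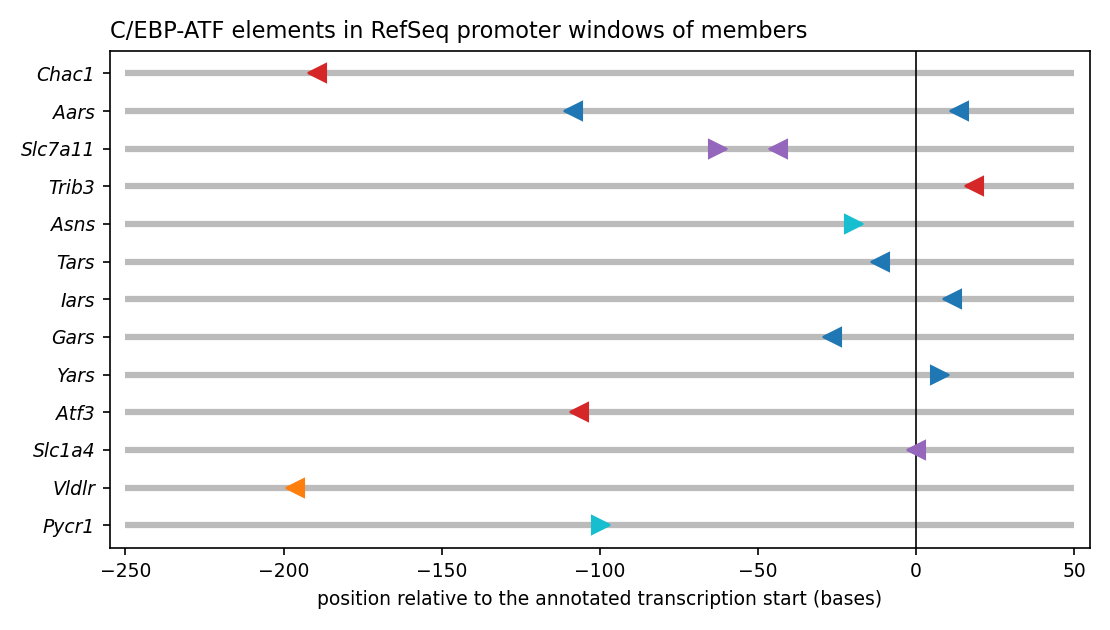
Positions of the C/EBP-ATF element (triangles) in the promoter windows of the 13 genes that held it, in bases from the annotated transcription start (vertical line); grey bars are the windows searched, triangles pointing right mark the sense and those pointing left the antisense orientation. Blue marks synthetases, turquoise other amino acid enzymes, purple transporters, red stress factors and orange Vldlr; the matches lie between -200 in Vldlr and 15 in Trib3, counted at their first base, with a pair of matches in Slc7a11 and in Aars.

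Each ratio given from here on is the log2 of knockdown divided by control for the brightest probe of a gene, after background correction and loess normalization within each array, so a value of 0 means equal levels and a negative value a lower level in the knockdown. Both arrays had 45018 spots, the median signal was 329 and 449 in Cy5 and 159 and 184 in Cy3, and 64.9% to 79.7% of spots were well above background. The targeted gene was lower on both arrays, with Mybbp1a at -1.64 and -1.91. All 6 myoblast markers (Myod1, Myf5, Cdh15, Des, Chrna1 and Pax7) were well above background in every channel. Of these 6, 3 were higher and 1 was lower in the knockdown on both arrays. Their median of 0.11 rests on array 2, being -0.01 on array 1 and 0.29 on array 2. The 5 measurable fibroblast markers were higher in the knockdown on both arrays, with a median of 1.22. Their means ran from 0.20 for Lum to 3.16 for Col1a1, whose arrays were far apart at 1.71 and 4.60. Col1a1 and Pdgfrb (mean 1.22) were past 2-fold on both arrays, while Thy1 was not well above background in any channel. The part of the fibroblast markers in the results below was not tested. In limma over all 18204 genes, 0% passed an adjusted p of 0.05, the lowest adjusted p being 0.174, while at an unadjusted p under 0.05 there were 2445 genes on the higher and 1363 on the lower side. The fit had only 1 residual degree of freedom, and 0.5 is the smallest two-sided p of an exact sign-flip test on a pair of arrays. Separate cultures for each replicate are not stated in the labels, so the p-values reflect only how far these samples differ, a spread that may be technical. No dye swap was made, so a dye bias and the knockdown cannot be told apart, and neither can slide and replicate.

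Most of the genes were lower in the knockdown on both arrays by less than 2-fold under loess, but not under median centring, where the median of all tested genes was higher. Of the 44 tested genes, 38 were lower on both arrays and 3 were higher on both (Aldh18a1, Pycr1 and Sesn3). Another 3 had opposite signs (Dars, Psph and Ddit3). Over all tested genes 29.4% were lower and 40.5% higher on both, but these are dimmer, with a median log2 intensity of 10.3 against 13.2. Among the 4551 brightest tested genes, with a median log2 intensity of 13.9, 1723 (37.9%) were lower and 1615 higher on both arrays. The median ratio of those 4551 genes was -0.0045. The median of the 44 was -0.29 (array 1, -0.35; array 2, -0.28), while the median of all tested genes was 0.03 on each array. One gene, Stc2, was at least 2-fold lower on both arrays, a level that 0.0549% of all tested genes reached, and none was at least 2-fold higher on both, which 0.632% of all genes were. Under median centring these calls turned: Stc2 was at -0.97 on array 1 and no longer past 2-fold on both, and Sesn3, at 1.31 and 1.36, was. These counts and medians use the contrast by which the genes were chosen, so they show the make-up of the list and are no support for it. In bulk RNA, fewer cells of a kind and less RNA per cell cannot be told apart.

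**Figure D2:**
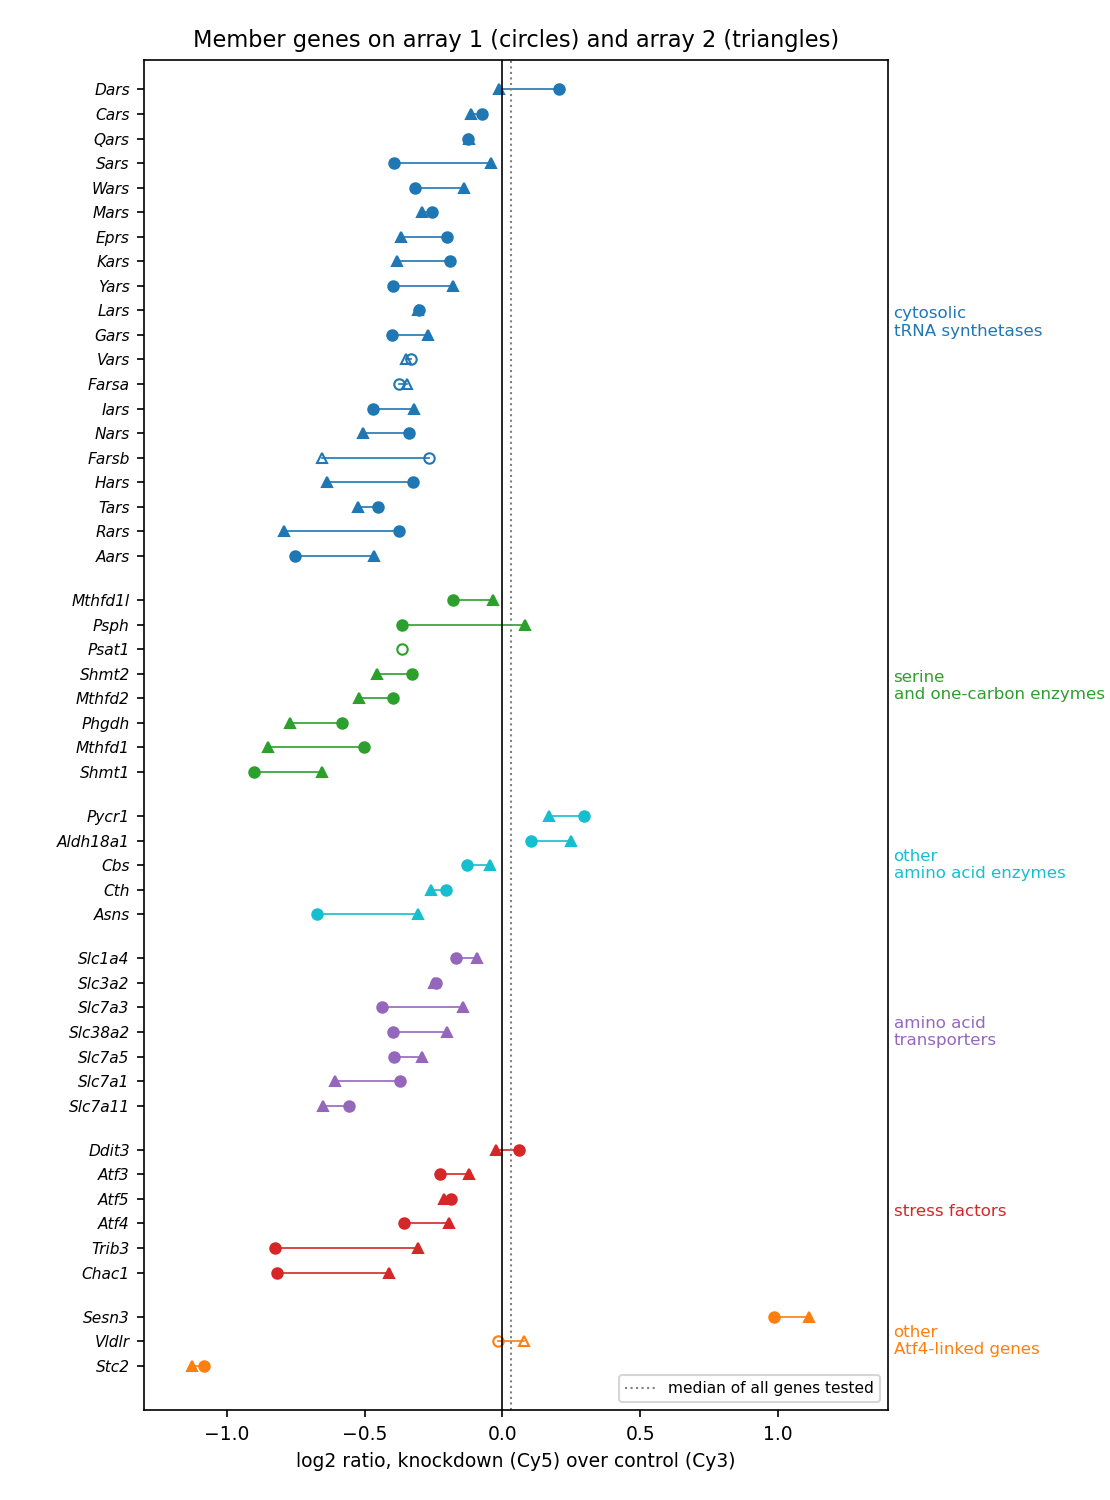
Log2 ratio of knockdown over control (x axis) for each gene on array 1 (circles) and array 2 (triangles), joined by a line and coloured by group; the dotted line is the median of all tested genes, 0.03. Hollow symbols mark genes that were not counted (Farsa, Farsb and Vars, found only by accession, Psat1 with 1 usable array, and Vldlr, near background); nearly all symbols lie left of 0, with Stc2 lowest and Sesn3 highest.

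The direction is relative to the other transcripts on the array and depends on the normalization. Where each array was only centred on its median, with no loess, the median of all tested genes moved to 0.21 and that of the brightest genes, those above the 75th percentile of intensity, to 0.37, while the 316 dimmest, with a log2 intensity of 6 to 7, moved from 0.01 to -0.26. The median of the 44 genes moved to 0.01, with 15 lower and 18 higher on both arrays. Of all 18204 tested genes, 2216 (12.2%) were lower and 11901 were higher on both. These numbers over all genes also stand beside the group counts under median centring given below. Relative to the other genes the position was similar: 40 of the 44 lay below the median of all tested genes under loess, and 35 of 44 did so under median centring. These are bright probes, with a median log2 intensity of 13.2 against 10.3 for all tested genes. Under median centring the 1656 genes with a log2 intensity of 13 to 14, where 13 of the 44 lay, had a median of 0.31. With the scanner's own processed signals, 37 of the 44 were lower on both arrays and their median was -0.30.

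**Figure D3:**
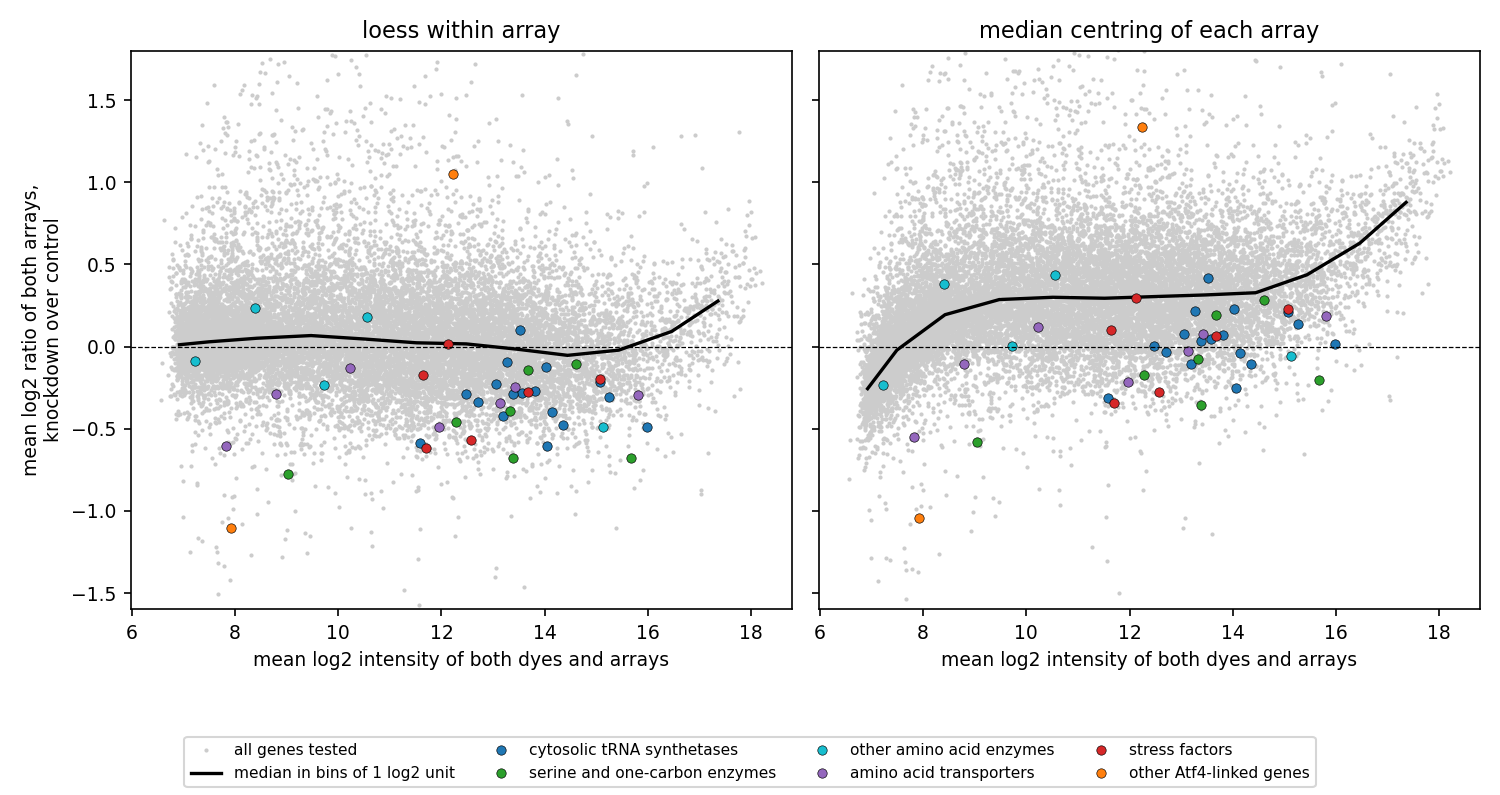
Mean log2 ratio of knockdown over control on both arrays (y axis) against the mean log2 intensity of both dyes (x axis) after loess within each array (left) and after median centring (right); grey points are all tested genes, the line is their median in bins of 1 log2 unit, and coloured points are the 44 genes by group. On the left the line lies at -0.02 for intensities of 13 to 14 and rises to 0.28 for intensities of 17 to 18, on the right it lies at 0.31 and 0.88 in the same bins, and most coloured points lie below the line in both panels.

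The cytosolic synthetases formed a narrow group with small negative ratios. Of the 17 counted, 16 were lower on both arrays, none was higher on both and Dars was divided, and the median log2 ratio was -0.29 (array 1, -0.32; array 2, -0.30). None reached 2-fold on either array. Under median centring the group's median was 0.03, with 4 lower and 6 higher on both arrays, beside 0.21 for all genes.

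The lowest mean was that of the alanyl-tRNA synthetase Aars, whose brightest probe lies at chr8:113942151-113942209 on build mm8, the build of the array's design. Its normalized log2 intensity was 13.91 in the knockdown and 14.66 in the control on array 1, and 13.60 and 14.07 on array 2. The ratio was therefore -0.75 and -0.46, on average -0.61 ± 0.20 (SD, n = 2), a level 1.52 times lower. The knockdown channel was the lower on each array, and the other tested Aars probes gave means of -0.64 and -0.52. The arginyl-tRNA synthetase Rars had ratios of -0.38 and -0.79 (mean -0.58 ± 0.30, SD, n = 2), so its arrays were farther apart than those of Aars. The threonyl-tRNA synthetase Tars had close ratios of -0.45 and -0.52, and the histidyl-tRNA synthetase Hars had -0.32 and -0.64, though its other probe gave a mean of -0.11.

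A middle set of synthetases lay near the group's median. The enzyme for asparagine, Nars, had ratios of -0.34 and -0.51, that for isoleucine, Iars, -0.47 and -0.32, and that for glycine, Gars, -0.40 and -0.27. Both values were nearly equal for Lars (leucine), at -0.30 on each array, and for Mars (methionine), at -0.26 and -0.29. The lysyl enzyme Kars had -0.19 and -0.38, the bifunctional glutamyl-prolyl enzyme Eprs -0.20 and -0.37, and the tyrosyl enzyme Yars -0.40 and -0.18. All of these were lower in the knockdown on each array.

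By their brightest probe, the synthetases closest to no difference were spread over several amino acids. The tryptophanyl enzyme Wars had ratios of -0.32 and -0.14, but its other probe had a mean of -0.41. The seryl enzyme Sars had -0.39 on array 1 but only -0.04 on array 2. The glutaminyl enzyme Qars gave -0.12 on both arrays, and the cysteinyl enzyme Cars -0.07 and -0.11. The other Cars probes had means of -0.11 and -0.29, and those of Qars -0.10 and -0.03. The aspartyl enzyme Dars was 0.21 on array 1 and -0.01 on array 2, and its 3 other probes had means of 0.03, -0.07 and 0.08. Enzymes that sit together in the multi-synthetase complex (Dars, Qars, Mars, Eprs, Kars, Lars, Iars and Rars) were found at both ends of the group, with means from 0.10 for Dars to -0.58 for Rars.

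The other synthetase genes, Farsa, Farsb and Vars, were on the array under other names and were found only through their accession. The phenylalanyl subunits Farsa and Farsb, which the file calls Farsla and Farslb, had ratios of -0.37 and -0.35, and of -0.27 and -0.65. The valyl enzyme Vars, whose probe carries the old name Vars2, had -0.33 and -0.35. All were lower on both arrays, and with them the synthetases' median was -0.32.

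The serine and one-carbon enzymes had the lowest median of the groups, -0.46 over 7 counted genes (-0.40 on array 1 and -0.52 on array 2). Of the 7, 6 were lower on both arrays and Psph was divided. Under median centring the median was -0.17, with 4 lower and 2 higher on both arrays. This group's median of the means thus stayed below 0 under loess, processed signals (-0.43) and median centring alike, as did that of the transporters. Under median centring, however, the group's median was -0.0021 on array 1 and -0.27 on array 2, so the -0.17 rests on array 2. That of the transporters was then -0.02 on array 1 and 0.02 on array 2.

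Serine is made from a glycolytic intermediate in a short pathway. Phgdh, the first and committed enzyme, had normalized log2 intensities of 15.59 in the knockdown and 16.17 in the control on array 1, and of 15.11 and 15.88 on array 2. Its ratios were -0.58 and -0.77 (mean -0.68 ± 0.13, SD, n = 2), and its other probes had means of -0.63 and -0.43. The next enzyme, the aminotransferase Psat1, had -0.36 on array 1; its spot on array 2 carried a non-uniformity mark in Cy5 and was left out, and read -0.29 where it was kept. The last enzyme, the phosphatase Psph, had -0.36 on array 1 and 0.08 on array 2, while its other probe had -0.51 and -0.02, so the sign on array 2 depends on the probe.

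The hydroxymethyltransferases pass the serine carbon to folate. The cytosolic form Shmt1 had log2 intensities of 9.11 in the knockdown and 10.02 in the control on array 1, and of 8.07 and 8.72 on array 2. Its ratios were -0.90 and -0.65 (mean -0.78 ± 0.18, SD, n = 2), while its other probe had a mean of -0.37. The mitochondrial form Shmt2 had -0.33 and -0.45. Both forms were thus lower on both arrays.

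The Mthfd enzymes interconvert the folate-bound carbon. The trifunctional cytosolic enzyme Mthfd1 had ratios of -0.50 and -0.85 (mean -0.68 ± 0.25, SD, n = 2), and its other probe a mean of -0.43. The mitochondrial dehydrogenase Mthfd2 had -0.40 and -0.52. The mitochondrial formate-producing enzyme Mthfd1l stood apart with -0.18 and -0.03.

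The other amino acid enzymes did not share a direction: 3 were lower and 2 higher on both arrays, with a median of -0.09. Asparagine synthetase, Asns, a standard Atf4 target, had log2 intensities of 14.91 in the knockdown and 15.58 in the control on array 1, and of 14.84 and 15.15 on array 2. Its ratios were -0.67 and -0.30 (mean -0.49 ± 0.26, SD, n = 2), lower on each array but unequal. The enzymes of proline synthesis were on the other side of 0: Aldh18a1, which makes the proline precursor from glutamate, had 0.11 and 0.25, and Pycr1, which makes the last step, had 0.30 and 0.17. In the conversion of homocysteine to cysteine, Cth had -0.20 and -0.26, and Cbs had -0.13 and -0.04 with a knockdown channel on array 1 that was not well above background. With the processed signals the median of these 5 genes was -0.24, and under median centring it was 0.00, so their middle value depends on the processing.

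All 7 amino acid transporters were lower on both arrays, and their median was -0.30 (array 1, -0.39; array 2, -0.25). Under median centring the median was -0.03, but -0.02 on array 1 and 0.02 on array 2, with 3 genes lower and 3 higher on both arrays. The cystine-glutamate exchanger subunit Slc7a11 had log2 intensities of 7.50 in the knockdown and 8.05 in the control on array 1, and of 7.57 and 8.22 on array 2. Its ratios were -0.56 and -0.65 (mean -0.60 ± 0.066, SD, n = 2), and its other tested probes had means of -0.94 and -0.29. It had the lowest mean of the 7 under loess, and its mean was -0.55 under median centring.

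The means of the remaining transporters lay closer to 0 under loess. The cationic amino acid transporter Slc7a1 had ratios of -0.37 and -0.61, but its other probe had a mean of 0.03, so its probes disagree. The related Slc7a3 had -0.44 and -0.14. The large neutral amino acid transporter Slc7a5 and its heavy chain Slc3a2, which form 1 exchanger, had -0.39 and -0.29, and -0.24 and -0.25. The neutral amino acid transporter Slc1a4 was nearest to 0, with -0.17 and -0.09. The sodium-coupled transporter Slc38a2, which responds to amino acid supply, had -0.40 and -0.20, but its 3 other probes had means of -0.53, 0.13 and 0.04, so its direction depends on the probe.

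Among the stress factors, the transcription factors lay closer to 0 than the downstream genes Trib3 and Chac1. Atf4 itself (probe at chr15:80083904-80083963, mm8) had log2 intensities of 13.86 in the knockdown and 14.21 in the control on array 1, and of 13.22 and 13.41 on array 2. Its ratios were -0.36 and -0.19 (mean -0.28 ± 0.11, SD, n = 2), and its mean was 0.06 under median centring. The related factors Atf5 and Atf3 had -0.19 and -0.21, and -0.23 and -0.12. Ddit3, which encodes the pro-apoptotic factor CHOP, was divided at 0.06 and -0.02.

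The pseudokinase gene Trib3 and the glutathione-degrading enzyme gene Chac1, both activated downstream of Atf4, had lower values on both arrays. Chac1 had log2 intensities of 11.13 in the knockdown and 11.95 in the control on array 1, and of 11.65 and 12.07 on array 2. Its ratios were -0.82 and -0.41 (mean -0.62 ± 0.29, SD, n = 2). Trib3 had -0.83 and -0.30 (mean -0.57 ± 0.37, SD, n = 2), and its other probe a mean of -0.30. For both genes array 1 was lower than array 2, as it was for Asns, Aars, Atf4, Atf3, Sars and Shmt1, among others. Rars, Hars, Mthfd1, Mthfd2, Phgdh, Slc7a1, Atf5, Slc7a11 and Tars were among those lower on array 2. Genes with the C/EBP-ATF element thus lay on both sides. The stress group had a median of -0.24, with 5 of 6 lower on both arrays and Ddit3 divided, and a median of 0.08 under median centring.

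**Figure D4:**
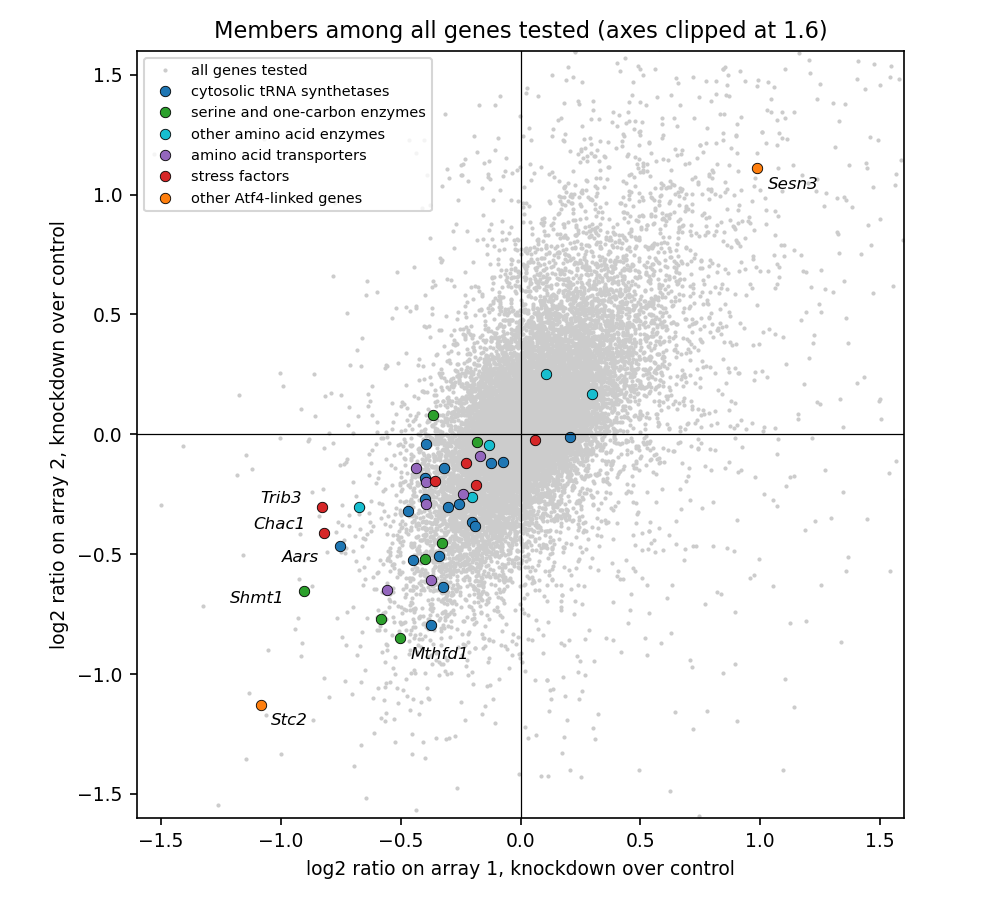
Log2 ratio of knockdown over control on array 2 (y axis) against array 1 (x axis) for all tested genes (grey) and the 44 genes by group (colours). Most coloured points lie in the lower left, where both arrays are below 0; Chac1, Trib3 and Aars lie farther from 0 on array 1, Mthfd1 farther on array 2, and Stc2 and Sesn3 lie at opposite ends.

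The genes with the widest difference were not enzymes of the pathway. Stc2, which encodes the secreted glycoprotein stanniocalcin 2 and is induced in the unfolded protein response, has its probe at chr11:31260136-31260195 (mm8). Its log2 intensity was 7.81 in the knockdown and 8.90 in the control on array 1, and 6.85 and 7.98 on array 2. The ratios were -1.08 and -1.13 (mean -1.11 ± 0.032, SD, n = 2; 2.15-fold lower). The knockdown value was below the control on each array, and under loess it was the 1 gene of the 44 past 2-fold on both arrays. Median centring gave -0.97 and -1.12, short of 2-fold on array 1, and the processed signals gave -1.52 and -1.86.

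Sesn3, which encodes a stress-induced inhibitor of mTORC1 signalling and is also a target of FoxO factors, was on the opposite side. Its brightest probe (chr9:14083307-14083366, mm8) had log2 intensities of 12.95 in the knockdown and 11.96 in the control on array 1, and of 12.58 and 11.46 on array 2. The ratios were 0.99 and 1.11 (mean 1.05 ± 0.088, SD, n = 2; 2.07-fold higher). Its other probes had means of 0.27 and 0.03, so the size rests on 1 of 3 probes, and on array 1 this probe was just short of 2-fold. Under median centring its ratios were 1.31 and 1.36, past 2-fold on both arrays. The lipoprotein receptor gene Vldlr was well above background only in Cy5 on array 2, and its brightest probe, with -0.02 and 0.08, was not tested.

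The genes were measured well above background in all 4 channels in 43 of 44 cases, and none had a saturated spot. Of the 44, 22 had more than 1 tested probe, and 32 of their 36 other probes had the same sign of the mean as the brightest one. The 12 tested genes whose promoter window held the C/EBP-ATF element shown above had a median of -0.44, between -0.62 for Chac1 and 0.23 for Pycr1, and 11 of these 12 had both arrays below 0. The 23 tested genes with a window without the element had a median of -0.27, with 18 lower and 2 higher on both arrays. Both medians are under loess, and the genes were chosen with their ratios known, many as known Atf4 targets. They are a description only, and whether genes with and without the element differ was not tested. Pycr1 held the element and was higher on both arrays, while Phgdh, Shmt1 and Mthfd1 were among the lowest genes and held no such letters in the window.

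Other genes of the same processes, listed by function, were examined beside these groups, and no gene of any list passed an adjusted p of 0.05 in limma over all genes. At an unadjusted p under 0.05 in limma, which 2445 of the 18204 tested genes passed on the higher and 1363 on the lower side, 7 folate and methionine cycle genes were lower and 0 higher, and 3 mitochondrial synthetases were lower and 1 higher. By the same measure 2 scaffold genes were lower and 0 higher, and 1 eIF2 gene was on each side. Of the other Atf4 partners and targets 5 were higher and 1 lower, of the other amino acid transporters 4 higher and 1 lower, and of the ATF6 and IRE1 genes 2 higher and 0 lower. The 17 mitochondrial synthetases, which charge transfer RNAs for the mitochondrial ribosome, had a median of -0.07, with 8 lower and 5 higher on both arrays. Their extremes were the methionyl enzyme Mars2, with -0.39 and -0.81 (limma adjusted p = 0.189), and the leucyl enzyme Lars2, with 0.20 and 0.37 (limma adjusted p = 0.234). Lars2 had a mean log2 intensity of 17.4, and its mean of 0.28 equalled the median of the 170 genes at 17 to 18. The mitochondrial synthetases thus had no common direction, and whether they differ from the cytosolic enzymes was not tested. Of 7 scaffold and tRNA handling genes, 5 were lower on both arrays and the median was -0.23. The scaffold protein gene Eef1e1 had -0.24 and -0.87, and Gatb, a subunit of the mitochondrial glutaminyl-tRNA amidotransferase, 0.04 and 0.10.

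The folate and methionine cycle, which uses the one-carbon units, had a median of -0.30 over 16 of its 18 genes, with 11 lower and 3 higher on both arrays. The purine enzyme Gart was lowest, with -0.26 and -0.89 (limma adjusted p = 0.233), and the folate dehydrogenase Aldh1l1 highest, with 0.55 and 0.14. The 11 genes of the eIF2 kinases, eIF2 and its phosphatases had a median of -0.14, with 7 lower and 2 higher. The subunit eIF2-alpha, Eif2s1, had -0.27 and -0.71, and the double-stranded RNA kinase PKR, Eif2ak2, 0.32 and 0.28. Under median centring these medians were 0.01 for the folate and methionine cycle, 0.15 for the eIF2 genes, 0.18 for the mitochondrial synthetases and 0.04 for the scaffold genes, beside 0.21 for all genes.

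Further Atf4 partners and targets and further amino acid transporters were mixed in direction. Of 18 other Atf4 partners and targets, 2 were lower and 9 higher on both arrays, with a median of 0.08 over the means and of 0.14 on array 1 and 0.16 on array 2; it was 0.16 with the processed signals, 0.19 with both channels well above background and 0.24 under median centring. The C/EBP factor gene Cebpd had 1.58 and 1.48 (limma adjusted p = 0.174), and the secreted stress factor gene Gdf15 had 0.11 and -1.02, which differ in sign. Of 14 measurable other amino acid transporters, 2 were lower and 5 higher on both arrays. Their median of 0.13 rests on array 2, being -0.02 on array 1 and 0.21 on array 2. The cationic transporter Slc7a7 had 1.52 and 2.01 and the glutamate transporter Slc1a3 1.499 and 1.456 (limma adjusted p = 0.174 for each), both past 2-fold on both arrays, while the glutamine transporter Slc1a5 had -0.55 and -0.34 (limma adjusted p = 0.186).

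Of 16 genes of the ATF6 and IRE1 arms, which raise chaperones and degradation factors of the endoplasmic reticulum, 11 were higher and 2 lower on both arrays, with a median of 0.09. That median was 0.012 with the deposited value table and 0.035 with the mean over probes, where all genes were at -0.013 and 0.025. The chaperone gene Hsp90b1 had 0.69 and 0.48 (limma adjusted p = 0.180), and the co-chaperone gene Dnajc3 was lowest, at -0.20 and -0.00. Hsp90b1 had a mean log2 intensity of 17.6, and the 170 genes at 17 to 18 had a median of 0.28. Under median centring this list's median was 0.49, beside 0.21 for all genes and 0.37 for those above the 75th percentile of intensity. The list was bright, with a median log2 intensity of 13.8.

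**Figure D5:**
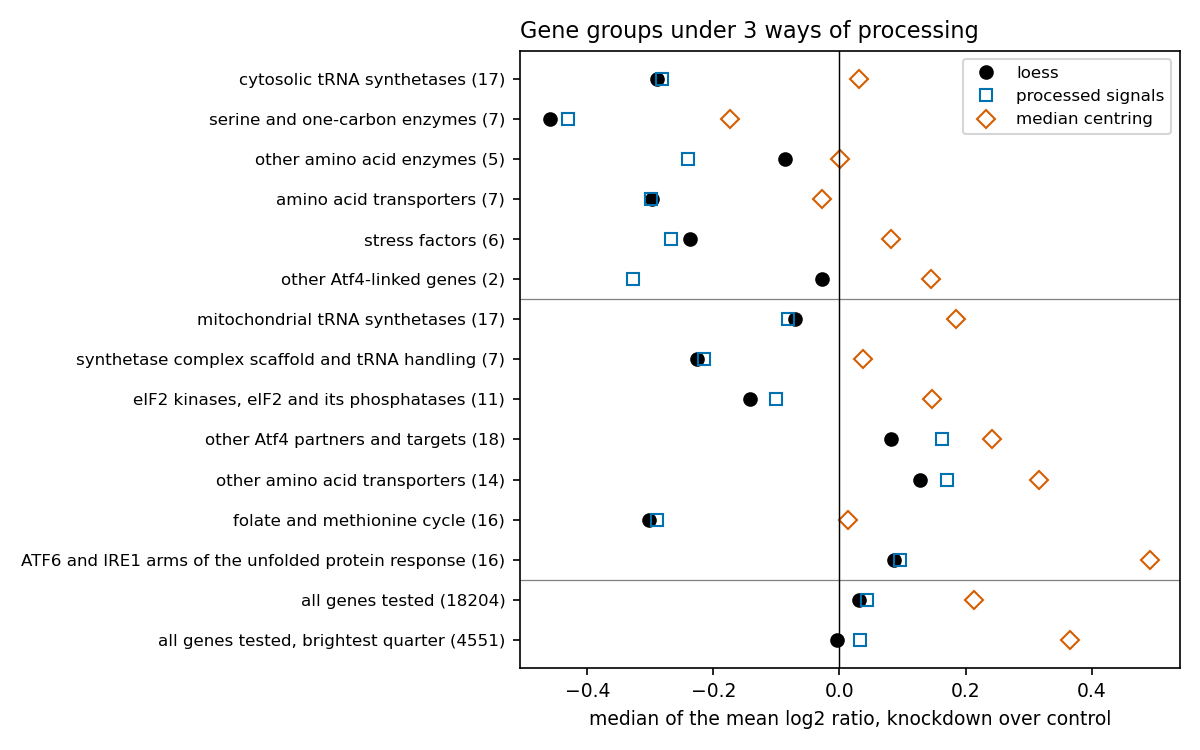
Median of the mean log2 ratio of knockdown over control for each gene group and list (x axis; number of tested genes in parentheses) after loess (filled circles), with the scanner's processed signals (squares) and after median centring (diamonds). The serine and one-carbon enzymes are lowest under loess at -0.46 and under median centring at -0.17, and median centring moves all tested genes to 0.21 and the brightest of them, above the 75th percentile of intensity, to 0.37.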

How the data were processed

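RNA of 2 pairs of knockdown and control samples was read on 2 two-colour Agilent whole mouse genome arrays of mm8 design with Agilent Feature Extraction 9.5.3.1, per the submitters' processing notes. Per the file headers, the deposited scanner output holds mean, background and processed intensity values for each colour and a log10 ratio of Cy5 over Cy3. The series' deposited table holds log2 ratios of knockdown over control; its direction and scale were taken from its match to the scanner values.

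Signals were corrected by normexp (offset 50) and normalized by loess within each array (span 0.3) with limma 3.58.1 (R 4.3.3). Control spots (1639, at weight 0) and the 154 and 237 spots marked as outliers were left out, saturated ones kept, and replicate spots averaged. A gene was its brightest tested probe by mean log2 intensity, named as in the file; genes of the other lists were matched by accession to RefSeq GRCm38.p6. Intensities per channel are after loess and Aquantile scaling. Probes entered the test if, on both arrays, at least 1 colour was well above background. Log2 ratios were tested against 0 with lmFit and eBayes, two-sided, with Benjamini-Hochberg adjustment. A check on simulated data required the right size and sign of the mean ratios and set no requirement on the p-values.

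The genes described and the lists were chosen with earlier results of these data known. The text names every gene of the 49 and, of each other pathway list, the tested gene with the highest and the lowest mean and any gene 2-fold apart on both arrays; marker lists are outside this rule. Myotube markers were also examined, with a median of 0.21 over 6 tested genes, but 0.33 on array 1 and -0.02 on array 2. Of these 6, 3 were higher and 2 lower on both arrays. Myog was among the higher, at 0.79 and 0.51, and Acta1 was divided at 1.19 and -0.40. The number of arrays limits the precision.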

Additional observations from a re-analysis of the deposited data

How the results depend on the processing

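With median centring, limma called 3188 genes against 0, genes at least 2-fold higher on both arrays numbered 290 against 115 and lower 6 against 10, and genes of the 44 lower on both arrays 15 against 38; group medians were 0.031 (synthetases), -0.17 (serine and one-carbon), 0.00082 (other enzymes), -0.028 (transporters), 0.082 (stress factors) and 0.15 (Stc2 with Sesn3). Signs also turned for Cars (0.22), Eprs (0.043), Kars (0.031), Lars (0.14), Mars (0.070), Qars (0.23), Sars (0.21), Tars (0.015), Wars (0.076), Yars (0.00096), Psph (0.19), Mthfd1l (0.28), Cth (0.00082), Slc3a2 (0.074), Slc1a4 (0.12), Slc38a2 (0.19), Atf3 (0.10), Atf4 (0.063), Atf5 (0.23) and Dnajc3 (0.22), and for the medians of the mitochondrial synthetases (0.18), scaffold genes (0.038), eIF2 genes (0.15) and folate genes (0.014). The median of all genes shifted to 0.21 at the same time; the cause of the dependence on intensity was not tested.

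With processed signals, 262 genes were 2-fold higher and 23 lower, the other enzymes were at -0.24 and Stc2 with Sesn3 at -0.33. With the deposited value table the counts were 224 and 22, the medians -0.34 (synthetases), -0.29 (other enzymes), -0.41 (transporters), -0.37 (stress factors) and -0.38 (Stc2 with Sesn3), all genes were at -0.013 and Dnajc3 at 0.049. RefSeq names put the synthetases at -0.32, which adds the genes found by accession. Requiring both channels above background put the other enzymes at -0.027, without Cbs. No filter, which adds Vldlr, put its group at 0.030, and the mean over probes put it at -0.33. Leaving out an array gave 255 to 493 genes 2-fold higher, 24 to 151 lower and synthetase medians of -0.32 to -0.30; limma then has no residual degrees of freedom, so it gives no count of calls. Saturated spots and background correction moved none of the group medians beyond the spread between arrays. Genes 2-fold higher on both arrays numbered 115 with saturated spots left out and 118 without background correction, and 10 were lower in each case. No paired analysis was possible because there is 1 group of ratios, with no other group to block by replicate number; the pairing of knockdown with control lies within each array's ratio. Signal over background limits Cbs, Vldlr and Thy1. Stc2 and Slc7a11 were well above background in all 4 channels but dim, with mean log2 intensities of 7.93 and 7.83. Their mean ratios were -1.69 and -0.97 with the processed signals, against -1.11 and -0.60 under loess, so their size depends on the processing.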
